A study of Mus musculus with 10 samples.

Results

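Mouse embryonic stem cell lines that lack both SVA retrotransposons from an engineered Taf1 allele were compared with lines that lack only 1 of them, gene by gene, and each difference was set beside the level in wild-type cells. The comparison used 7 of the 10 samples of the series, all bulk RNA-seq libraries of C57BL/6J stem cells. Cells were kept on gelatin with serum, LIF, the GSK3 inhibitor CHIR99021 at 3 µM and the MEK inhibitor PD0325901 at 1 µM. The 2 libraries of conv-dSVA_F&D (FD1 and FD2) were set against 4 pooled single-deletion libraries, 2 of conv-dSVA_D (D1 and D2) and 2 of conv-dSVA_F (F1 and F2). The reference for direction was the 1 library of the wild-type line MK6 (WT1). All 3 converted lines carry loxP[Taf1_i24], a loxP site in Taf1, together with the entries pSpCas9[null] and pSpCas9GFP[null] for Cas9 plasmids, the swap-in LPSwapinRed_pUC19[Taf1_3_4], the Cre entry pCAGiCre[null] and a Taf1_humanization_hTAF1 segment at Taf1_1_2 that is marked mousified and converted. The mark of that segment is SVAdel in conv-dSVA_F, dSVA2 in conv-dSVA_D and both marks in conv-dSVA_F&D. Each genotype has 1 line name and no clone is named, so the effect of genotype and that of the line cannot be told apart. No converted library that keeps both SVAs was analysed here.

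SVA elements are composite retrotransposons of the human genome, and an SVA inserted in an intron of TAF1 is the variant behind X-linked dystonia-parkinsonism, in which TAF1 RNA is reduced. TAF1 is the largest subunit of TFIID, the complex that recognises core promoters and starts assembly of the RNA polymerase II machinery. A gene was described as outside when both double-deletion libraries lay above the highest, or both below the lowest, of the 4 single-deletion libraries. It was described as moving toward the wild type when WT1 lay outside that range on the same side.

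The levels are gene counts that the authors divided by 1 size factor per library (normalized counts). Recovered reads per library ran from 16588467 in FD2 to 26562418 in D2, and 3 reads, the upper limit that a count of 0 allows for counting error, were worth 2.45 to 4.18 normalized counts. The 15240 genes tested had a mean level of 10 or more. Differences are log2, on the scale of the normalized count plus 1, with ± the standard error of the limma fit, and adjusted p is limma's after the Benjamini-Hochberg procedure on these 15240 genes, with 0.05 as the threshold. The labels do not say that the paired libraries came from separate cultures, so p-values measure only the spread between these libraries. In bulk RNA, fewer cells expressing a gene and less RNA per cell cannot be told apart. All 7 libraries carried pluripotency markers, with Pou5f1 at 18394 to 24255 and Nanog at 16246 to 28144. Of the naive pluripotency list, Esrrb was at 8574 to 15358, Tfcp2l1 at 21719 to 34275, Klf4 at 1897 to 3417 and Zfp42 at 2019 to 3160. Several libraries stood apart by chromosome. Median levels relative to WT1 on chromosomes 6 and 8 were raised in F1 and F2 by 0.36 to 0.63 and in D1 and D2 by 0.07 to 0.24, and were between -0.01 and 0.01 in FD1 and FD2. Chromosome 18 was raised by 0.51 in FD2 alone. On the Y chromosome, over 6 genes, the median was -1.04 and -1.41 in D1 and D2 and -0.29 and 0.34 in F1 and F2. It was 0.94 and 0.78 in FD1 and FD2. The main counts are also given without these chromosomes. Of the fibroblast markers, Col1a2 was at 96.0 in WT1 and 0 to 8.36 elsewhere and Postn at 57.9 in WT1 and 0 elsewhere, while Lum was at 0 in all 7.

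Taf1 was higher when both SVAs were deleted and was still below the wild type. Its level was 362 and 418 in D1 and D2, 501 and 589 in F1 and F2, 1116 and 1088 in FD1 and FD2, and 2898 in WT1. The 4 single-deletion libraries, the 2 double-deletion libraries and WT1 formed 3 ranges that did not overlap. The double-deletion line exceeded the mean of the single-deletion lines by 1.26 ± 0.13 (adjusted p = 0.00584), with 1.50 ± 0.15 against conv-dSVA_D (adjusted p = 0.00456) and 1.02 ± 0.15 against conv-dSVA_F (adjusted p = 0.0139). WT1 exceeded the single-deletion mean by 2.65 ± 0.17 (adjusted p = 0.000484), so the double deletion spanned 47.5% of that distance on the log2 scale. The remaining difference, 1.39 ± 0.19, did not pass the threshold (adjusted p = 0.0668). The 2 single-deletion lines differed by 0.48 ± 0.15, conv-dSVA_F being the higher, and this did not pass either (adjusted p = 0.155). The Taf1 difference between double and single deletion held without any 1 of the 6 converted libraries, at 1.20 to 1.32 with a highest adjusted p of 0.0387. It lost its call, at the same size, without the filter on low values (adjusted p = 0.155) and without limma's variance trend (adjusted p = 0.169). The sources used here do not say whether Taf1 counts include reads from the human-derived segment.

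Of the 15240 genes tested, 4089 (26.8%) lay outside in the sense defined above, 2003 higher (13.1%) and 2086 lower (13.7%). The limma test called 636 genes (4.17%), 319 higher (2.09%) and 317 lower (2.08%), and 174 of them differed at least 2-fold. Of the 636, 619 lay outside the single-deletion range and 17 did not. Tested against each single-deletion line separately, 333 of the 636 also passed against conv-dSVA_D, where 3.16% of all genes passed. The numbers were 373 against conv-dSVA_F, where 3.92% of all genes passed, and 151 against both. Between the single-deletion lines 29 of the 636 passed, and 1.35% of all genes. The number depended on how the spread was estimated. Without the filter on low values and without the variance trend 0 genes passed limma's test (4174 and 2671 at an unadjusted p under 0.05). With the 4 single-deletion libraries treated as 1 group 40 passed. edgeR's quasi-likelihood test on the recovered reads called 639 and DESeq2 called 1274. The count was 83 without D1, 82 without D2, 100 without F1, 246 without F2, 905 without FD1 and 259 without FD2.

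Among the 636 genes, WT1 lay outside the single-deletion range on the same side for 469 (73.7%), inside it for 148 (23.3%) and on the opposite side for 19 (2.99%). Taf1 was 1 of the 469, a count that was 74 without D1, 72 without D2, 89 without F1, 197 without F2, 562 without FD1 and 186 without FD2. The same-side share was 71.2% of the higher genes and 76.3% of the lower ones, beside 55.3% of all 4089 genes outside and 37.9% and 38.1% of all tested genes whose difference was positive and negative. The double deletion and the wild type are both measured from the same 4 libraries, which ties the 2 directions together, so these shares are given as a description. Among the 469, the double deletion spanned a median of 121% of the distance from the single-deletion mean to WT1, with quartiles of 90.4% and 170%, and only 4 of the 469 spanned a smaller share than Taf1. The genes were called on the double-deletion difference, the numerator of this share, and not on the distance to WT1. The call itself therefore favours large shares, and no conclusion is drawn from the median or from the place of Taf1. None of the 636 passed the limma test between WT1 and the double deletion, 190 of them had an unadjusted p under 0.05 there, and 142 passed between WT1 and the single-deletion mean. Over all genes the percentages that passed were 0.0262% and 3.22% in these 2 contrasts.

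**Figure D1:**
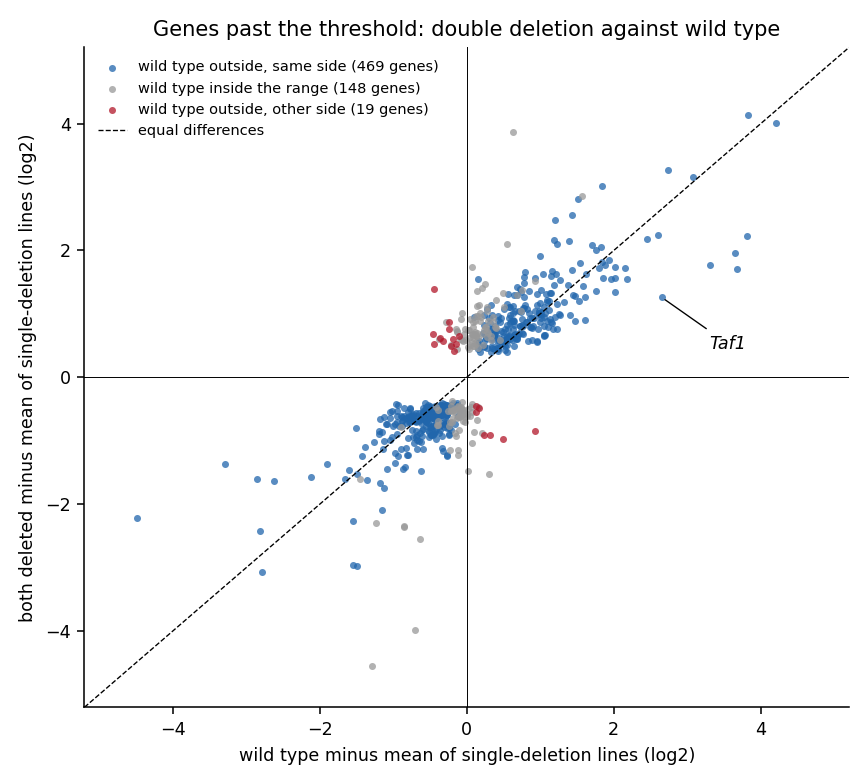
The 636 genes past the threshold, with the wild-type library minus the single-deletion mean on the x axis and the double deletion minus the single-deletion mean on the y axis, both in log2. Colours give the position of the wild-type library (469 same side, 148 inside, 19 other side), the dashed line marks equal differences, and both axes share the 4 single-deletion libraries. Taf1 lies below the dashed line at 2.65 and 1.26.

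The same count was made with each single-deletion line in the place of the double deletion. Both libraries of conv-dSVA_F lay outside the other 4 converted libraries for 3502 genes (23.0%) and both of conv-dSVA_D for 3585 (23.5%), against 4089 (26.8%) for conv-dSVA_F&D. WT1 was on the same side for 55.3% of the genes that set conv-dSVA_F&D apart, 40.3% for conv-dSVA_F and 37.0% for conv-dSVA_D. Without chromosomes 6, 8, 18 and Y the shares were 52.9%, 44.4% and 37.2%. The order of the lines was the same in both counts, and the 3 counts share libraries, so the difference between lines was not tested. Over the whole transcriptome the distance of the double-deletion libraries from WT1 overlapped that of the single-deletion libraries. The median absolute log2 difference from WT1 was 0.36 and 0.35 in FD1 and FD2, 0.39 and 0.34 in D1 and D2, and 0.37 and 0.36 in F1 and F2, so D2 alone was closer than FD1 and FD2. Without chromosomes 6, 8, 18 and Y it was 0.3592 and 0.343 in FD1 and FD2 and 0.3884 and 0.3295 in D1 and D2. In F1 and F2 it was then 0.3452 and 0.3482. D2 was again the closest, and F1 and F2 were closer than FD1 though not than FD2. The share of genes at least 2-fold from WT1 was 11.4% in FD1, the lowest of the 6, 15.4% in FD2 and 13.2% to 16.3% in the single-deletion libraries. Without those chromosomes this share was 11.3% in FD1, again the lowest, 15% in FD2 and 12.7% to 15.9% in the single-deletion libraries. WT1 differed at least 2-fold from the double-deletion mean for 11.2% of genes and from the single-deletion mean for 10.6%. The limma test called 4 genes in the first contrast (5_8S_rRNA, Gm25099, Rpl10l and Rps16, with 2451 at an unadjusted p under 0.05) and 491 in the second. The median standard error was 0.283 in the first and 0.259 in the second.

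**Figure D2:**
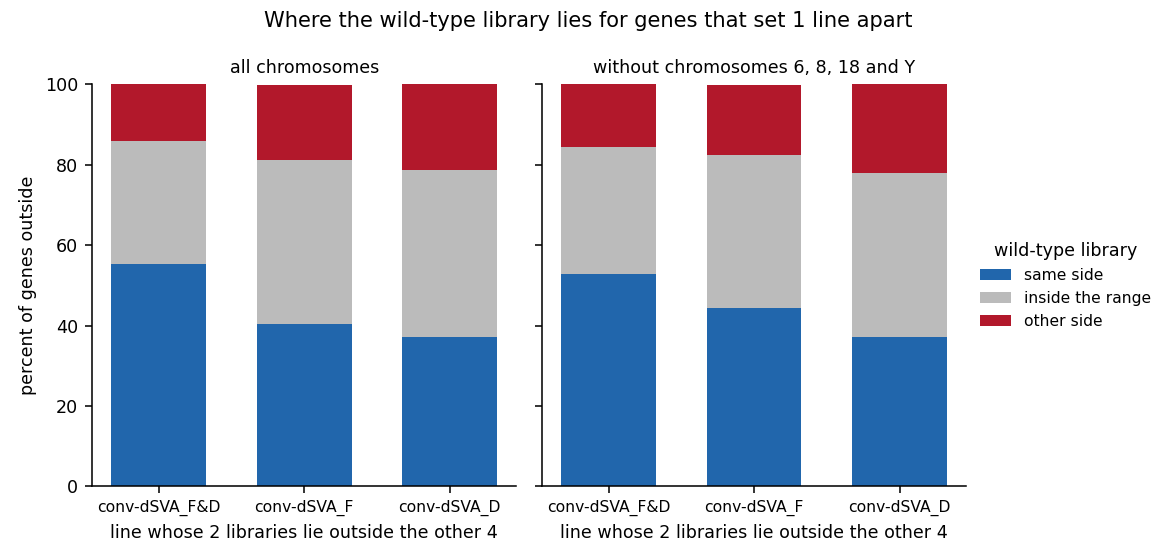
For each converted line, the percent of genes whose 2 libraries lie outside the other 4 converted libraries that have the wild-type library outside on the same side (blue), inside (grey) or outside on the other side (red), over all chromosomes and without chromosomes 6, 8, 18 and Y. The same-side share is 55.3% for conv-dSVA_F&D, 40.3% for conv-dSVA_F and 37.0% for conv-dSVA_D over all chromosomes.

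A set of 51 genes, 8.02% of the 636, passed the threshold in the full data and again without each of the 6 converted libraries in turn. It was singled out after its values were seen. It held 35 higher and 16 lower genes. WT1 was on the same side for 47 of the 51 and inside the single-deletion range for Uba1y, Agrn, Lama5 and Dzip3. All 51 also passed with edgeR, with DESeq2, with TMM scaling and with chromosome medians set equal. Setting the medians equal left the Y chromosome, which holds 3 of the 51, unadjusted. With the 4 single-deletion libraries as 1 group 31 passed, and 0 passed without the filter or the trend. Of the genes named below that are outside the set and past the threshold, Tor3a alone passed with the single-deletion libraries as 1 group.

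Among the 35 higher genes, Pdgfc, a platelet-derived growth factor, had the smallest p. Its level was 514 and 594 in D1 and D2, 535 and 584 in F1 and F2, 1671 and 1758 in FD1 and FD2, and 1142 in WT1, in ranges that did not overlap, with a difference of 1.62 ± 0.12 (adjusted p = 0.00246). WT1 lay between the single-deletion and the double-deletion libraries. FD1, FD2 and WT1 were close together for Hmgcs1, the cytosolic HMG-CoA synthase of the mevalonate pathway. Hmgcs1 was 2762 to 3143 in the single-deletion libraries, 4944 and 5036 in FD1 and FD2 and 5374 in WT1, a difference of 0.78 ± 0.09 (adjusted p = 0.00722). F2r, the thrombin receptor PAR1, had the same layout, with 568 to 778 in the single-deletion libraries, 1546 and 1552 in FD1 and FD2 and 1455 in WT1. The meiotic kinase gene Aurkc was 75.7 to 122 in the single-deletion libraries, 367 and 267 in FD1 and FD2 and 423 in WT1. The Tudor-domain gene Tdrd12 of the piRNA pathway was 405 to 631 in the single-deletion libraries, 1354 and 1859.7 in FD1 and FD2 and 2164 in WT1. Ooep, a subunit of the oocyte subcortical maternal complex, was 2422 to 3434 in the single-deletion libraries, 5137 and 5025 in FD1 and FD2 and 6174 in WT1. In all 3, WT1 was the highest library. Ptch1, the Hedgehog receptor, was 451 to 637 in the single-deletion libraries, 1276 and 1003 in FD1 and FD2 and 764 in WT1. Igf2bp2, an RNA-binding protein gene, was 1207 to 1721 in the single-deletion libraries, 3129.5 and 2499 in FD1 and FD2 and 1799 in WT1, with WT1 nearer the single-deletion libraries in both. Agrn and Lama5 encode basement membrane proteins. Agrn was 2761 to 4448 in the single-deletion libraries, 6117 and 5622 in FD1 and FD2 and 4069 in WT1. Lama5 was 3743 to 5891 in the single-deletion libraries, 8529.7 and 7368 in FD1 and FD2 and 4789 in WT1. In both, WT1 lay within the single-deletion range while FD1 and FD2 did not. Among metabolic genes of the set were Pck2, the mitochondrial phosphoenolpyruvate carboxykinase (1.14 ± 0.16), and Galk1, galactokinase (0.81 ± 0.11).

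Among the 16 lower genes, 9 lie on chromosome 6 and 3 on chromosome 8. Those on other chromosomes were Sgk1, Dzip3, Cc2d1b and the testis histone gene H2bc1. Sgk1, the serum- and glucocorticoid-regulated kinase, was 11579 and 10999 in D1 and D2, 6902 and 7413 in F1 and F2, 5219 and 4570.5 in FD1 and FD2, and 5774 in WT1. Both double-deletion libraries and WT1 lay below all 4 single-deletion libraries, with a difference of -0.88 ± 0.10 (adjusted p = 0.00584). Dzip3, a ubiquitin ligase gene, was 735 to 1329 in the single-deletion libraries, 419 and 326 in FD1 and FD2 and 1316 in WT1, a difference of -1.53 ± 0.19 (adjusted p = 0.00722), and here WT1 stayed with the single-deletion libraries. On chromosome 6, the imprinted gene Mest was 1299.7 to 3522 in the single-deletion libraries, 669 and 915 in FD1 and FD2 and 537 in WT1. The actin nucleation subunits Arpc4 of the Arp2/3 complex and Brk1 of the WAVE complex fell by 0.79 and 0.76 on the log2 scale. The pro-apoptotic Bid was 958 to 1325 in the single-deletion libraries, 491 and 312 in FD1 and FD2 and 714 in WT1. The DNA glycosylase gene Ogg1, which removes oxidised guanine, was 600.0 to 669 in the single-deletion libraries, 257 and 313 in FD1 and FD2 and 391 in WT1. On chromosome 8, the quinone reductase gene Nqo1 was 2452 and 3359 in D1 and D2, 6555 and 4183 in F1 and F2, 1255 and 1684 in FD1 and FD2, and 2161 in WT1, a difference of -1.41 ± 0.20 (adjusted p = 0.0104), with a wide spread among the single-deletion libraries. Sgk1, Mest and Nqo1 did not pass with the 4 single-deletion libraries as 1 group.

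**Figure D3:**
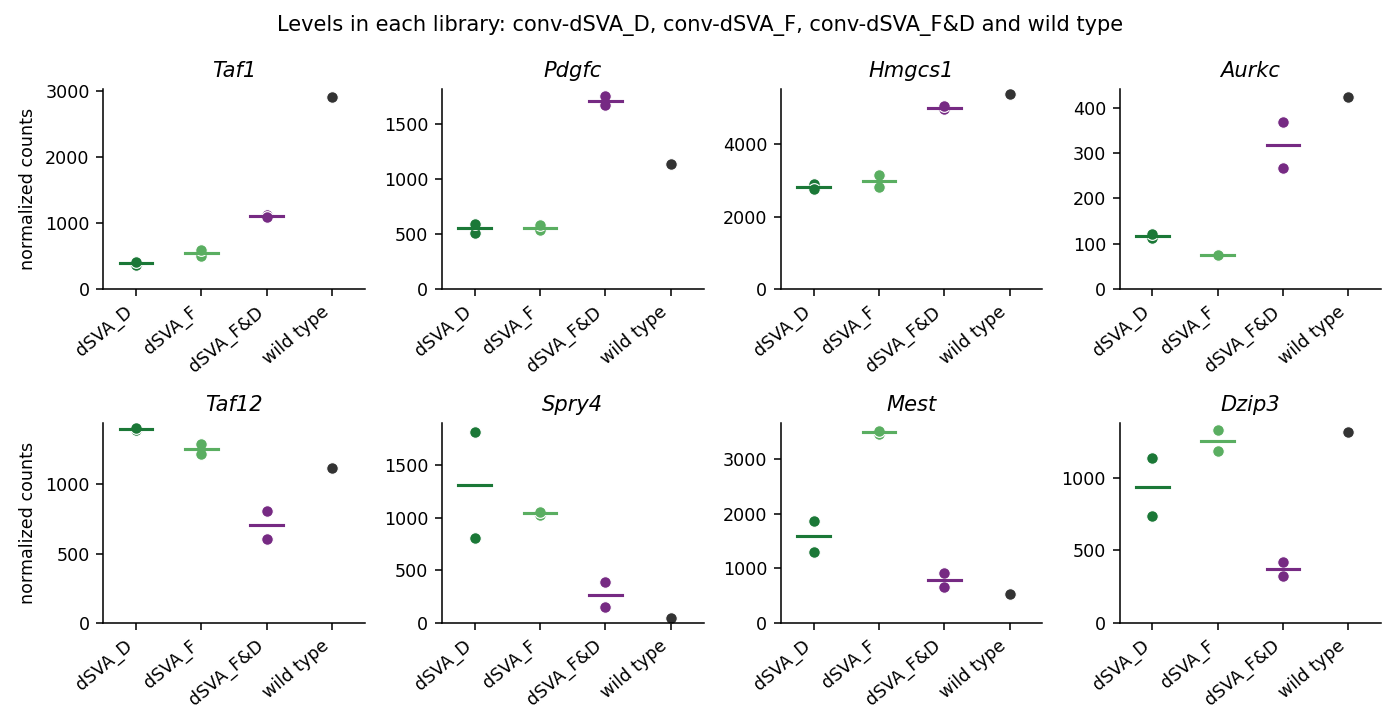
Normalized counts (y axes, from 0) of 8 genes in each library, grouped by line (x axes), with the mean of paired libraries as a bar. Taf1, Pdgfc, Hmgcs1 and Aurkc are higher in conv-dSVA_F&D than in all 4 single-deletion libraries, and Taf12, Spry4, Mest and Dzip3 are lower. The wild-type library is on the same side for all except Dzip3, where it is at 1316 among single-deletion levels of 735 to 1329.

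Among genes with a mean of at least 100, the 6 largest rises with WT1 on the same side were Dnai2, Igfbp4, Lef1, Col5a3, Ccdc136 and Cfap206. Dnai2, a dynein arm component of motile cilia, was 10.6 and 44.1 in D1 and D2, 16.2 and 39.6 in F1 and F2, 229 and 209 in FD1 and FD2, and 206 in WT1, a difference of 3.16 ± 0.56 (adjusted p = 0.0201). FD1, FD2 and WT1 were near each other and far above every single-deletion library. Cfap206, another cilium gene, was 28.9 to 76.7 in the single-deletion libraries, 166 and 258 in FD1 and FD2 and 176 in WT1. Igfbp4, which binds insulin-like growth factors, was 91.2 and 153 in D1 and D2, 28.1 and 98.5 in F1 and F2, 650.1 and 486 in FD1 and FD2, and 228 in WT1, so the double deletion lay above WT1 and WT1 above the rest. Lef1, a transcription factor of the WNT pathway, was 50.2 to 216 in the single-deletion libraries, 368 and 928 in FD1 and FD2 and 241 in WT1, with FD2 well above FD1. Col5a3, a type V collagen chain, was 30.7 to 80.2 in the single-deletion libraries, 245 and 228 in FD1 and FD2 and 120.1 in WT1. Ccdc136, on chromosome 6, was 47 to 91.4 in the single-deletion libraries, 304 and 260.5 in FD1 and FD2 and 216 in WT1. Col5a3 and Ccdc136 kept their calls without each converted library. Dnai2 lost its call without D1, F1 or FD2 (adjusted p 0.0502 to 0.0694). Igfbp4 lost its call without D1 (adjusted p = 0.0584). Lef1 lost its call without D1, D2, F1 or FD2 (adjusted p 0.0511 to 0.0952). Cfap206 lost its call without D1, D2 or FD2 (adjusted p 0.0579 to 0.0607).

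Under the same limit, the 6 largest falls with WT1 on the same side were Spry4, Id1, Etv4, Junb, Nnat and Tor3a. Spry4, which restrains ERK signalling as a feedback inhibitor, was 1811 and 803 in D1 and D2, 1025 and 1055 in F1 and F2, 148 and 393 in FD1 and FD2, and 49.1 in WT1, a difference of -2.21 ± 0.38 (adjusted p = 0.0201). WT1 was the lowest library and D1 the highest. Etv4, an ETS transcription factor downstream of FGF and ERK, was 1606 to 2450.4 in the single-deletion libraries, 362 and 1045 in FD1 and FD2 and 311 in WT1, with FD1 and WT1 close and FD2 nearer the single-deletion range. Id1, a BMP target that inhibits bHLH factors, was 472 to 1907 in the single-deletion libraries, 223 and 368 in FD1 and FD2 and 439.9 in WT1. Junb, a subunit of AP-1, was 288 to 459 in the single-deletion libraries, 139 and 89.2 in FD1 and FD2 and 133 in WT1. The imprinted gene Nnat was 238 to 365 in the single-deletion libraries, 67.8 and 148 in FD1 and FD2 and 41.5 in WT1. The torsin family gene Tor3a was 193 to 245 in the single-deletion libraries, 76.9 and 64.1 in FD1 and FD2 and 67.7 in WT1. Each of these 6 calls was lost in at least 1 fit with a library left out. All such fits except that without FD1 called fewer genes in total, so a lost call does not by itself show reliance on that library. Over these fits the difference ran from -2.91 to -1.51 for Spry4, -2.10 to -1.38 for Id1 and -2.40 to -0.87 for Etv4. It ran from -1.93 to -1.29 for Junb, -2.16 to -1.05 for Nnat and -1.73 to -1.47 for Tor3a. Spry4 lost its call without D1, F1 or F2 (adjusted p 0.0563 to 0.0719). Id1 lost its call without D2, F1 or FD1 (adjusted p 0.0525 to 0.0713). Etv4 lost its call without D1, D2, F1 or F2 (adjusted p 0.0862 to 0.112) and with DESeq2 (adjusted p = 0.0688). Junb lost its call without D1, D2 or FD2 (adjusted p 0.0579 to 0.0757). Nnat lost its call without D1, D2, F1 or F2 (adjusted p 0.0738 to 0.0926). Tor3a lost its call without D1, D2 or F1 (adjusted p 0.0525 to 0.0669).

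Upstream sequences are shown for 4 of these genes because TFIID recognises core promoters, and they show a promoter without and 3 with a TATA box letter match. RefSeq promoter windows of GRCm38.p6 run from 250 bases before to 50 after the start, and 13871 windows belonged to 10904 of the tested genes. On either strand TATAAA was present in 8.25% of the windows of higher genes, 6.29% of lower genes and 7.43% of all tested genes, and GGGCGG in 65.1%, 66.2% and 61.8%. CACGTG was present in 8.89%, 7.62% and 9.80%, and TGACGTCA in 0.952%, 2.32% and 2.94%. Without chromosomes 6 and 8, TATAAA was present in 8.36% of the windows of higher genes and 10.1% of lower genes. CACGTG was then in 9.03% and 11.9%, GGGCGG in 64.55% and 64.22%, and TGACGTCA in 0.669% and 1.835%. The order of higher and lower genes was thereby reversed for all these motifs except TGACGTCA. No overlap between motifs was removed, and a match describes letters only. The 150 bases just upstream of the start are printed for the mouse reference, not for the engineered allele, with GGGCGG in capitals for Taf1 and TATAAA in capitals for the others. They are chrX:101532585-101532734 on the plus strand for Taf1, chr11:99041094-99041243 on the plus strand for Igfbp4, chr10:21992073-21992222 on the plus strand for Sgk1 and chr8:107403206-107403355 on the minus strand for Nqo1.
Taf1: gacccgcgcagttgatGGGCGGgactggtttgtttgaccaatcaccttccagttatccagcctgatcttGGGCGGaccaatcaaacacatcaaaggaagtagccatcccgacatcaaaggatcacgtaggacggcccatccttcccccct
Igfbp4: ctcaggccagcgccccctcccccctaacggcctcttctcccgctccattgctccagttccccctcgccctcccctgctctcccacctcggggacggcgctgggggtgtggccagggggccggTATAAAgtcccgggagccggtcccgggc
Sgk1: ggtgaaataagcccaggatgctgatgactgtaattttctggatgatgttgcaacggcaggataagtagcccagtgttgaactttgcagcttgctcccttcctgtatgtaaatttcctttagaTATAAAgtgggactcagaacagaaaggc
Nqo1: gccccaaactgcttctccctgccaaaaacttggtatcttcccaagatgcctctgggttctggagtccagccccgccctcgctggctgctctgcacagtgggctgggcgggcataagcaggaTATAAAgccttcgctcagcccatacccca
The match starts 28 bases upstream of the start in Igfbp4 and Sgk1 and 29 in Nqo1, and the Taf1 matches start 81 and 134 bases upstream. Igfbp4 rose, Sgk1 and Nqo1 fell, so the same letters stood before genes that moved in opposite directions.

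WT1 lay inside the single-deletion range for 80 of the higher and 68 of the lower genes, and the double-deletion line left that range for 75 and 64 of them. Among those with a mean of at least 100, the largest rises were Uba1y, Uty, Prickle2, Steap3, Kdm6b and Itgb4. Uba1y, which encodes a ubiquitin-activating enzyme on the Y chromosome, was 179.6 and 149 in D1 and D2, 342 and 523 in F1 and F2, 1049 and 1227 in FD1 and FD2, and 384 in WT1. Uty, a Y-linked relative of a histone demethylase, was 153 and 269 in D1 and D2, 591 and 914 in F1 and F2, 1047 and 1173 in FD1 and FD2, and 737 in WT1. In both, D1 and D2 were the lowest libraries, and conv-dSVA_F differed from conv-dSVA_D as well. Kdm6b, an H3K27 demethylase, was 268 to 573 in the single-deletion libraries, 1279 and 827 in FD1 and FD2 and 439 in WT1. The integrin gene Itgb4 was 52.8 to 119 in the single-deletion libraries, 231 and 174 in FD1 and FD2 and 112 in WT1. The planar polarity gene Prickle2, on chromosome 6, was 55.7 to 104 in the single-deletion libraries, 176 and 267 in FD1 and FD2 and 91.7 in WT1. The ferrireductase gene Steap3 was 99.6 to 348 in the single-deletion libraries, 390.0 and 685 in FD1 and FD2 and 333 in WT1. The largest falls under the same limit were Pramel6, Dzip3, Krcc1, Pyurf, Acot13 and Katnip. Pramel6, a gene of the early embryo and naive stem cells, was 108 to 944 in the single-deletion libraries, 57.7 and 40.4 in FD1 and FD2 and 184 in WT1, with F1 the highest library. The thioesterase gene Acot13 was 307 to 686 in the single-deletion libraries, 201 and 187 in FD1 and FD2 and 367 in WT1. Krcc1, on chromosome 6, was 115 to 534 in the single-deletion libraries, 92.5 and 91.9 in FD1 and FD2 and 261 in WT1. Pyurf, also on chromosome 6, was 287 to 392 in the single-deletion libraries, 170.3 and 121 in FD1 and FD2 and 310.0 in WT1. Katnip was 174 to 265 in the single-deletion libraries, 114 and 87.8 in FD1 and FD2 and 203 in WT1. Apart from Uba1y and Dzip3, these calls were lost without at least 1 library. Uty lost its call without F1 or FD2 (adjusted p 0.0525 to 0.0579). Prickle2 lost its call without D1, D2, F1, F2 or FD2 (adjusted p 0.0723 to 0.173). Steap3 lost its call without D1, D2, F1, F2 or FD2 (adjusted p 0.0664 to 0.219) and with chromosome medians set equal (adjusted p = 0.0587). Kdm6b lost its call without D1 or D2 (adjusted p 0.0502 to 0.0686). Itgb4 lost its call without any 1 of the 6 converted libraries (adjusted p 0.0545 to 0.0987). Pramel6 lost its call without D2 or FD2 (adjusted p 0.0579 to 0.0687). Krcc1 lost its call without D2, F1 or FD2 (adjusted p 0.0775 to 0.102) and with chromosome medians set equal (adjusted p = 0.0558). Pyurf lost its call without D1, D2, F1 or FD2 (adjusted p 0.0545 to 0.0712). Acot13 lost its call without D2 or F1 (adjusted p 0.0525 to 0.0683). Katnip lost its call without D1, D2, F1, F2 or FD2 (adjusted p 0.0701 to 0.132).

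In 19 genes WT1 lay beyond the single-deletion libraries on the opposite side. Fam13c, the Rac exchange factor gene Tiam1 and the formin gene Diaph1 had the largest rises of this kind among genes with a mean of at least 100. Fam13c was 142 to 201 in the single-deletion libraries, 302 and 291 in FD1 and FD2 and 136 in WT1. Tiam1 was 278 to 365 in the single-deletion libraries, 569 and 492 in FD1 and FD2 and 265 in WT1. Diaph1, on chromosome 18, was 2231 to 2670.3 in the single-deletion libraries, 3377 and 4628 in FD1 and FD2 and 1797 in WT1. Under that limit the largest falls were in Cmc1 and Cox20, both assembly factors of cytochrome c oxidase, and in Gc, the vitamin D-binding protein gene. Cmc1 was 299.5 to 489.8 in the single-deletion libraries, 234 and 167 in FD1 and FD2 and 548 in WT1. Cox20 was 392 to 498 in the single-deletion libraries, 251 and 209 in FD1 and FD2 and 509 in WT1. Gc was 559.8 to 763 in the single-deletion libraries, 341 and 358 in FD1 and FD2 and 821 in WT1. Fam13c lost its call without any 1 of the 6 converted libraries (adjusted p 0.0951 to 0.132) and with chromosome medians set equal (adjusted p = 0.0542). Tiam1 lost its call without any 1 of the 6 converted libraries (adjusted p 0.0672 to 0.135) and with chromosome medians set equal (adjusted p = 0.0582). Diaph1 lost its call without D1, D2, F1, F2 or FD2 (adjusted p 0.059 to 0.103) and with chromosome medians set equal (adjusted p = 0.0657). Cmc1 lost its call without D1, D2, F1, F2 or FD2 (adjusted p 0.0731 to 0.1). Cox20 lost its call without D1, D2, F1, F2 or FD2 (adjusted p 0.0569 to 0.0894). Gc lost its call without D1 or D2 (adjusted p 0.0502 to 0.0579).

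Calls were spread unevenly over chromosomes. Chromosomes 6 and 8 held 10.2% of tested genes, 62.8% of the lower calls (199 of 317) and 3.45% of the higher calls (11 of 319). Chromosome 6 had 94 lower and 9 higher genes of 739 tested and chromosome 8 had 105 and 2 of 811, while chromosome 18 had 1 lower and 23 higher of 372. The median difference between the double and single deletions was -0.28 on chromosome 6, -0.35 on chromosome 8 and 0.30 on chromosome 18, against -0.0029 over all genes. On chromosomes 6 and 8 the median levels of FD1, FD2 and WT1 nearly coincided and those of F1 and F2 were highest, as given above. Of the calls on these 2 chromosomes, 79.5% had WT1 on the same side, against 70.9% of the 426 calls elsewhere. Chromosome medians were also set equal between libraries, except on Y and the mitochondrial genome, where only 6 and 7 genes were usable. After that step 378 genes passed, 249 higher and 129 lower. With chromosomes 6, 8, 18 and Y left out of the test 281 passed, 202 higher and 79 lower. The part of the chromosome-wide differences in single-gene results was otherwise not tested. On the Y chromosome 4 of 7 tested genes rose and 0 fell. Zfy1 was 17.9 to 39.4 in the single-deletion libraries, 255 and 196 in FD1 and FD2 and 99.3 in WT1. Ddx3y, a Y-linked RNA helicase gene, was 890.1 to 1387 in the single-deletion libraries, 2181 and 2131 in FD1 and FD2 and 1491 in WT1, with FD1 and FD2 the 2 highest libraries in both.

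**Figure D4:**
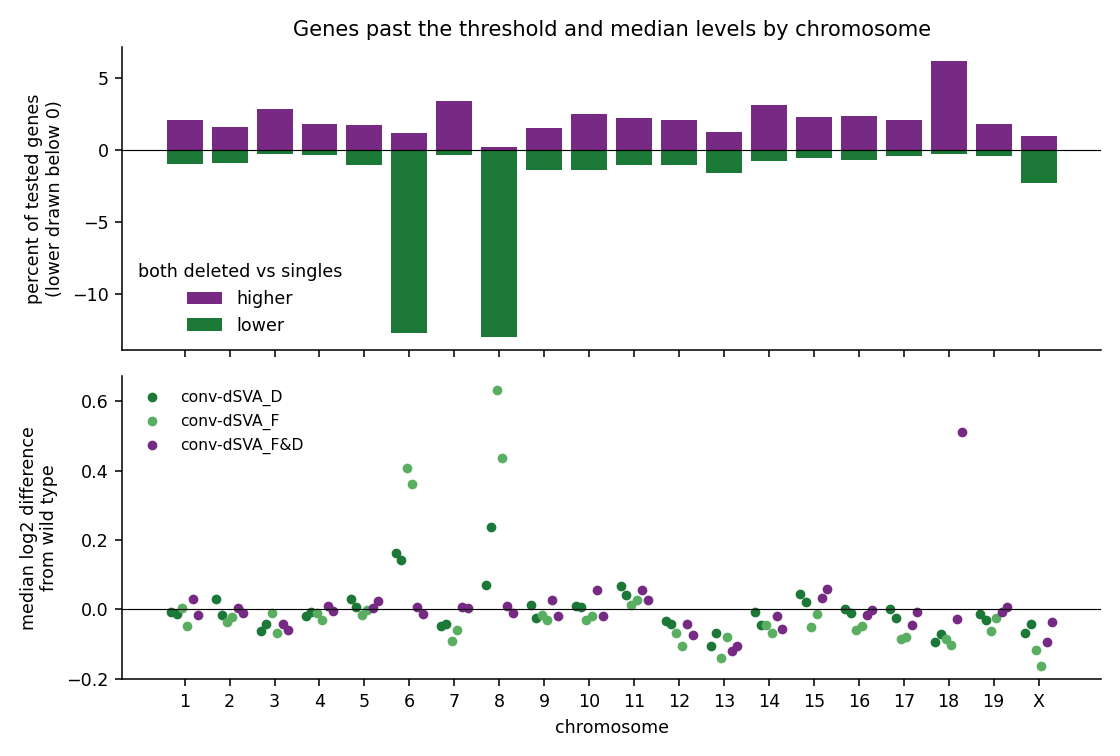
Top, percent of tested genes on each autosome and on X past the threshold in the double deletion against the single deletions, higher above 0 and lower drawn below 0. Bottom, median log2 difference of each converted library from the wild-type library for protein-coding genes on that chromosome. Lower calls concentrate on chromosomes 6 and 8, where the conv-dSVA_F libraries stand 0.36 to 0.63 above the wild type and the conv-dSVA_F&D libraries lie between -0.01 and 0.01.

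The counts of list members that rose and fell stand against 2.09% and 2.08% of all genes, and those above and below the single-deletion range against 13.1% and 13.7%. List counts at an unadjusted p under 0.05 in the limma test stand against 3304 of all 15240 genes, 1643 higher and 1661 lower. Taf1 was the only 1 of 19 TFIID subunits tested to rise, and Taf12, a histone-fold subunit, was the only 1 to fall, in the limma test. Taf12 was 1388 and 1403 in D1 and D2, 1291 and 1216 in F1 and F2, 605 and 811 in FD1 and FD2, and 1119 in WT1, so the double-deletion line was below all others and WT1 slightly below the single-deletion range. The difference was -0.92 ± 0.14 (adjusted p = 0.0128), lost without D1, D2 or F1 (adjusted p 0.0525 to 0.0631). Both double-deletion libraries lay above the single-deletion range for 2 of the 19 and below it for 4, Taf1 and Taf12 included. At an unadjusted p under 0.05 in the limma test, 1 was higher and 5 lower. Taf2 and Taf13 were among those below the range and did not pass. Taf2 was 2061 to 2328 in the single-deletion libraries, 1720.4 and 1706 in FD1 and FD2 and 1489 in WT1. Taf13 was 374 to 468 in the single-deletion libraries, 233 and 329 in FD1 and FD2 and 383 in WT1. The median over the 19 was -0.09 in the double deletion and -0.13 in WT1, both relative to the single-deletion mean. edgeR called 1 higher and 1 lower, and DESeq2 1 higher and 3 lower.

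Of 30 genes for RNA polymerase II and general factors, 0 rose and 2 fell by the limma test, which called 7 at an unadjusted p under 0.05, and DESeq2 called 5. The 2 were Gtf2a1, the TFIIA precursor, and the TFIIE subunit gene Gtf2e2 on chromosome 8. Gtf2a1 was 1869 to 2825 in the single-deletion libraries, 1419 and 1195 in FD1 and FD2 and 1602 in WT1. Gtf2e2 was 1537 to 2520.3 in the single-deletion libraries, 1373 and 1379 in FD1 and FD2 and 1668 in WT1. Gtf2a1 lost its call without D1, F1 or FD2 (adjusted p 0.0673 to 0.0712). Gtf2e2 lost its call without any 1 of the 6 converted libraries (adjusted p 0.072 to 0.141) and with chromosome medians set equal (adjusted p = 0.298). Of 26 X-linked genes near Taf1, 1 rose, Taf1 itself, and 1 fell, Pdzd11, at 764 to 959.8 in the single-deletion libraries, 562 and 603 in FD1 and FD2 and 868 in WT1. The Pdzd11 call, with an adjusted p of 0.0491, was lost without any 1 of the 6 converted libraries (adjusted p 0.0625 to 0.149) and with chromosome medians set equal (adjusted p = 0.0532). Of the 26, 6 were higher and 1 lower at an unadjusted p under 0.05. Both double-deletion libraries lay above the single-deletion range for 7 (26.9%, against 13.1% of all genes) and below it for 3. The median was 0.19 in the double deletion and 0.23 in WT1. The summed level of this list, Taf1 included, was 54587 to 58748 in the single-deletion libraries, 63183 and 63925 in the double-deletion libraries and 76152 in WT1. The immediate neighbour Ogt was 4207 to 5301 in the single-deletion libraries, 5266 and 5196 in FD1 and FD2 and 4577 in WT1, which overlap, and its difference was 0.12 ± 0.09 (adjusted p = 0.457).

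Of 29 genes of glycolysis and the hypoxia response, 7 rose and 0 fell, beside 2.09% and 2.08% of all genes, 12 lay above the single-deletion range and 1 below, and the median difference was 0.58, with 0.55 in WT1. Hk1, a hexokinase gene, was 670.2 and 1002 in D1 and D2, 676 and 788 in F1 and F2, 1969.5 and 1518 in FD1 and FD2, and 1135 in WT1, a difference of 1.16 ± 0.18 (adjusted p = 0.0139). Ndrg1 was 233 to 477 in the single-deletion libraries, 732 and 862 in FD1 and FD2 and 496 in WT1. The prolyl hydroxylase gene Egln3, a hypoxia-inducible factor target, was 137 to 335 in the single-deletion libraries, 706 and 777 in FD1 and FD2 and 422 in WT1. The glucose transporter gene Slc2a1 was 4074 to 6077 in the single-deletion libraries, 8367 and 7602 in FD1 and FD2 and 5276 in WT1. The other 3 were Pfkl, Eno1 and P4ha1. F1 was the lowest library for Ndrg1, Egln3, Slc2a1, Pfkl, Eno1 and P4ha1. The number that rose was 2 without D1, 2 without D2, 1 without F1, 12 without F2, 3 without FD1 and 1 without FD2. Hk1 lost its call without F1 (adjusted p = 0.0553). Ndrg1 lost its call without F1 or FD2 (adjusted p 0.0673 to 0.068). Egln3 lost its call without D1, D2 or FD2 (adjusted p 0.0843 to 0.0884). Slc2a1 lost its call without D1, D2, F1, FD1 or FD2 (adjusted p 0.0668 to 0.114).

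Among insulin-like growth factor genes, 4 of 15 rose and 0 fell, beside 2.09% and 2.08% of all genes, and the median was 0.54, with 0.45 in WT1. Besides Igfbp4 and Igf2bp2 these were Igfbp2 and the insulin receptor substrate gene Irs2. Igfbp2 was 5271 to 9919 in the single-deletion libraries, 13772 and 14933 in FD1 and FD2 and 14159 in WT1. Irs2, on chromosome 8, was 178 to 287 in the single-deletion libraries, 449 and 421 in FD1 and FD2 and 242 in WT1. FD1, FD2 and WT1 were alike for Igfbp2, whereas WT1 lay within the single-deletion range for Irs2. Igfbp2 lost its call without FD2 (adjusted p = 0.053), Irs2 without D1, D2, F1, F2 or FD2 (adjusted p 0.0589 to 0.0858) and Igfbp4 as given above, and the count was 2 to 4 over the libraries left out. In cholesterol synthesis 3 of 28 rose (Hmgcs1, Stard4 and Scd1) and 1 fell, Mvd on chromosome 8. Stard4, a sterol carrier gene on chromosome 18, was 257 to 313 in the single-deletion libraries, 529 and 435 in FD1 and FD2 and 361 in WT1. The desaturase gene Scd1 was 922 to 1416 in the single-deletion libraries, 1850.4 and 1919.6 in FD1 and FD2 and 1539 in WT1. Mvd, mevalonate diphosphate decarboxylase, was 649.9 to 997 in the single-deletion libraries, 580.5 and 549 in FD1 and FD2 and 714 in WT1. Stard4 lost its call without any 1 of the 6 converted libraries (adjusted p 0.0728 to 0.148) and with chromosome medians set equal (adjusted p = 0.291) and with TMM scaling (adjusted p = 0.0509). Scd1 lost its call without D1, D2, F1, FD1 or FD2 (adjusted p 0.0834 to 0.152) and with chromosome medians set equal (adjusted p = 0.0582) and with TMM scaling (adjusted p = 0.0511). Mvd lost its call without any 1 of the 6 converted libraries (adjusted p 0.056 to 0.135) and with chromosome medians set equal (adjusted p = 0.471). With TMM scaling 1 gene of the list rose and 1 fell. In the unfolded protein and integrated stress list, 2 of 25 rose. The serine synthesis gene Phgdh was 1515 to 2099 in the single-deletion libraries, 3117 and 2446 in FD1 and FD2 and 2859.7 in WT1. The Phgdh call was lost without D1, D2, F1, F2 or FD1 (adjusted p 0.0614 to 0.0975). Stc2 was 55.3 to 247 in the single-deletion libraries, 428 and 593 in FD1 and FD2 and 534 in WT1. The Stc2 call was lost without D1, D2 or FD2 (adjusted p 0.0862 to 0.123).

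Most members of the 4 lists of signalling targets did not pass the test. Of 16 ERK feedback and ETS targets, 0 rose and 2 fell, Spry4 and Etv4, which are described above, with 8 at an unadjusted p under 0.05. The median was -0.09 in the double deletion and -0.50 in WT1. Of 16 immediate early and AP-1 genes, 0 rose and 2 fell, Junb and Jund, both on chromosome 8. Jund was 469.5 to 1031 in the single-deletion libraries, 371 and 436 in FD1 and FD2 and 315 in WT1. The Jund call was lost without D1, D2, F1, F2 or FD1 (adjusted p 0.0579 to 0.1) and with chromosome medians set equal (adjusted p = 0.0913). Of 16 Nodal and BMP targets, 1 rose, the SMAD corepressor gene Skil, and 3 fell, Id1, Id3 and Bmp4. Skil was 977 to 1565 in the single-deletion libraries, 2208 and 2505 in FD1 and FD2 and 2286 in WT1. Id3 was 1702 to 2358 in the single-deletion libraries, 472 and 1124 in FD1 and FD2 and 658 in WT1. Bmp4 was 30.2 to 188 in the single-deletion libraries, 13.7 and 18.1 in FD1 and FD2 and 33.8 in WT1. Skil lost its call without D1, F1 or FD2 (adjusted p 0.0728 to 0.11). Id3 lost its call without D1, D2, F1 or F2 (adjusted p 0.0569 to 0.103). Bmp4 lost its call without D1, D2, F1, F2 or FD2 (adjusted p 0.0556 to 0.091). Of 17 WNT targets, 3 rose and 1 fell, and besides Lef1 and Bmp4 these were Notum, a secreted WNT inhibitor, and Tnfrsf19. Notum was 264 and 280.0 in D1 and D2, 233 and 383 in F1 and F2, 664 and 612 in FD1 and FD2, and 669 in WT1, so FD1, FD2 and WT1 were alike and above the rest. Tnfrsf19 was 219 to 367 in the single-deletion libraries, 559 and 673 in FD1 and FD2 and 733 in WT1. Notum lost its call without D1, D2 or FD2 (adjusted p 0.057 to 0.0761). Tnfrsf19 lost its call without D2, F1, F2 or FD2 (adjusted p 0.0707 to 0.126). In zinc transport and metallothioneins, 1 of 17 fell, the transporter gene Slc39a14. Slc39a14 was 887 to 1632 in the single-deletion libraries, 322 and 625 in FD1 and FD2 and 119 in WT1, with WT1 again the lowest library. This call was lost without D1, D2, F1, F2 or FD1 (adjusted p 0.051 to 0.0999).

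Of 20 naive pluripotency genes 1 rose and 1 fell. Klf2, on chromosome 8, was 1698 to 2397 in the single-deletion libraries, 2880.5 and 2693 in FD1 and FD2 and 2502 in WT1. Nanog, on chromosome 6, was 20492 to 28144 in the single-deletion libraries, 19514 and 16246 in FD1 and FD2 and 20486 in WT1. Klf2 lost its call without any 1 of the 6 converted libraries (adjusted p 0.0663 to 0.104). Nanog lost its call without D1, D2, F1, F2 or FD2 (adjusted p 0.0816 to 0.191) and with chromosome medians set equal (adjusted p = 0.317) and with edgeR (adjusted p = 0.0527). Of 14 formative genes, Otx2 and Lef1 rose and Etv4 fell. Otx2 was 10.6 to 28.6 in the single-deletion libraries, 89.7 and 98.9 in FD1 and FD2 and 51.3 in WT1. The Otx2 call was lost without any 1 of the 6 converted libraries (adjusted p 0.0687 to 0.131) and with chromosome medians set equal (adjusted p = 0.0529). Of 17 genes listed for the 2-cell-like state 3 rose, Tmem92, Zscan4a and Zfp809, and the median was 0.76 in the double deletion and 3.20 in WT1. Zfp809 is also in the list of retrotransposon silencing genes. It was the only 1 of the 3 for which both double-deletion libraries lay outside the single-deletion range. Tmem92 was 9.6 and 11.4 in D1 and D2, 175 and 102 in F1 and F2, 174 and 102 in FD1 and FD2, and 389 in WT1, with FD1 and FD2 inside the range of F1 and F2. Zscan4a, which has near-identical copies among which reads cannot be assigned with certainty, was 9.6 and 15.5 in D1 and D2, 147 and 119 in F1 and F2, 199 and 93.3 in FD1 and FD2, and 535 in WT1. In both, only D1 and D2 were low, and FD1 and FD2 did not both leave the single-deletion range. For Zscan4a FD1 lay above that range and FD2 inside it. Zfp809 was 785 to 916 in the single-deletion libraries, 1318 and 1187 in FD1 and FD2 and 1205 in WT1. Tmem92 lost its call without D1, D2, F1, F2 or FD1 (adjusted p 0.0752 to 0.0986). Zscan4a lost its call without D1, D2, F1, F2 or FD1 (adjusted p 0.0843 to 0.128) and with chromosome medians set equal (adjusted p = 0.0539). Zfp809 lost its call without any 1 of the 6 converted libraries (adjusted p 0.0717 to 0.137) and with chromosome medians set equal (adjusted p = 0.0526).

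Markers of other cell types are given for whole lists, and their part in other results was not tested. Of 10 fibroblast and feeder genes, only Fn1, fibronectin, rose in the limma test. Fn1 was 10822 to 20336 in the single-deletion libraries, 28248 and 21092 in FD1 and FD2 and 13460.0 in WT1, and its call was lost without D1, D2, F1 or FD1 (adjusted p 0.057 to 0.0947). The list's summed level was 11427 to 20817 in the single-deletion libraries, 21631 and 28804 in the double-deletion libraries and 14575 in WT1. Fn1 alone made up 28248 of it in FD1 and 21092 in FD2. Over the tested genes the median difference from the single-deletion mean was 0.14 in the double deletion and 0.93 in WT1. Acta2, Col1a1 and Col5a2 were highest in WT1, at 299, 69.9 and 60.0. Tagln, Thy1 and Twist1 were highest in F1, and Col5a1 in FD1. Col1a2, Postn and Lum were at 0 to 8.36, and Col1a1 at 33.9 and 36.2, in FD1 and FD2. Pdgfrb, also of this list and on chromosome 18, was at 79.7 and 110.1 there, above the 38.4 to 60.4 of the single-deletion libraries and without passing, and at 79.7 in WT1. Fn1 and Pdgfrb were the 2 of 10 members above that range, and 0 lay below it. Of 14 primitive endoderm and basement membrane genes, Lamb1 and Lamc1 rose. Lamb1 was 1683 to 1994 in the single-deletion libraries, 2841 and 2477 in FD1 and FD2 and 1342 in WT1. Lamc1 was 8004 to 10137 in the single-deletion libraries, 12967 and 11888 in FD1 and FD2 and 8305 in WT1, and Lamb1 and Lamc1 were 2 of 5 members above that range (35.7% of the list, against 13.1% of all genes), with 0 below it. The others were Gata4, Col4a2 and Amn, which did not pass. Col4a2 was at 887 and 302 in FD1 and FD2 and at 185 to 278 in the single-deletion libraries. Lama1 did not rise, with 1509 to 2848 in the single-deletion libraries, 1828 and 1002 in FD1 and FD2 and 929 in WT1. Gata4, an endoderm transcription factor, was at 43.95 and 41.8 in FD1 and FD2, at 13.2 to 23.8 in the single-deletion libraries and at 40.4 in WT1. Gata6 was at 12.8 and 13.9 and Sox17 at 9.16 and 11.1 in FD1 and FD2, and the single-deletion libraries ran from 0.82 to 30.6 and from 10.6 to 27.2. The median of the list was 0.53 in the double deletion and -0.28 in WT1. The summed level of this list was 22723 to 26522 in the single-deletion libraries, 29190 and 31561 in the double-deletion libraries and 22671 in WT1. Lamb1 lost its call without D1, D2, F1, F2 or FD1 (adjusted p 0.0674 to 0.103), and Lamc1, whose adjusted p was 0.0499, without any 1 of the 6 converted libraries (adjusted p 0.0787 to 0.152) and with chromosome medians set equal (adjusted p = 0.0587) and with TMM scaling (adjusted p = 0.0544). Of 9 neural genes, Stmn2 and Olig2 rose, and the median of the list was 0.58 in the double deletion and 0.04 in WT1. The summed level was 5137 to 6410.1 in the single-deletion libraries, 6386 and 7878 in the double-deletion libraries and 8732 in WT1. Most of each sum was Stmn2. Tubb3 did not rise, with 1220 to 1813 in the single-deletion libraries, 773 and 1429 in FD1 and FD2 and 1386 in WT1. Stmn2 was 2705 to 3681 in the single-deletion libraries, 4616 and 5176 in FD1 and FD2 and 6335 in WT1. Olig2 was 239 to 439.7 in the single-deletion libraries, 511 and 656 in FD1 and FD2 and 559.9 in WT1. Pax6 was at 0 in FD1 and 8.36 in FD2 and Dcx at 0 in both. Stmn2 lost its call without D1, D2, F1 or FD2 (adjusted p 0.0987 to 0.132). Olig2 lost its call without D1, D2, F1, F2 or FD2 (adjusted p 0.0778 to 0.168) and with chromosome medians set equal (adjusted p = 0.0573). Of 12 trophoblast genes the limma test called 0, with 4 at an unadjusted p under 0.05, edgeR called 0 and DESeq2 3, and of 5 mesoderm genes all 3 tests called 0, with 0 at an unadjusted p under 0.05.

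Of 25 germline genes, Aurkc rose and Stag3 and Tex13b fell, 6 lay above the single-deletion range and 4 below. Stag3, a meiotic cohesin gene, was 780.3 to 1333 in the single-deletion libraries, 519 and 433 in FD1 and FD2 and 595 in WT1. The Stag3 call was lost without D2 (adjusted p = 0.0507). Tex13b was 559 and 557 in D1 and D2, 75.7 and 65 in F1 and F2, 106 and 39 in FD1 and FD2, and 72 in WT1, high in conv-dSVA_D alone. The Tex13b call was lost without D1, D2, F1, F2 or FD2 (adjusted p 0.09 to 0.141) and with chromosome medians set equal (adjusted p = 0.0526) and with edgeR (adjusted p = 0.057). Of 33 imprinted genes, H19 rose and Mest, Nnat and Ddc fell. H19, a maternally expressed noncoding RNA gene, was 14.4 and 9.8 in D1 and D2, 2100.0 and 554 in F1 and F2, 514 and 1432 in FD1 and FD2, and 350.4 in WT1, low in conv-dSVA_D alone. The H19 call was lost without D1, D2 or FD2 (adjusted p 0.0692 to 0.0967). Ddc was 1344 to 2043 in the single-deletion libraries, 1051 and 851 in FD1 and FD2 and 1322 in WT1. The Ddc call was lost without D1, D2, F1, F2 or FD2 (adjusted p 0.0551 to 0.108). Of 16 cilium genes 2 rose, Dnai2 and Cfap206, and 0 fell, beside 2.09% and 2.08% of all genes. Both double-deletion libraries lay above the single-deletion range for 6 of the 16 (37.5%, against 13.1% of all genes) and below it for 1, and the median was 0.67, with 0.53 in WT1. The count for cilium genes fell to 0 without D1 and without FD2.

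Of 57 cytoplasmic ribosomal protein genes, many of which have pseudogene copies, the limma test called 0, with 22 at an unadjusted p under 0.05, edgeR called 0 and DESeq2 called 7 higher. Both double-deletion libraries lay above the single-deletion range for 28 of the 57 (49.1%, against 13.1% of all genes) and below it for 1. The median difference was 0.19 in the double deletion and 0.53 in WT1. Summed over the list, the single-deletion libraries held 1236600 to 1372900 normalized counts, FD1 and FD2 1454300 and 1601100, and WT1 1878000. The ribosomal protein gene Rps16 was instead lowest in WT1, at 3641. It was at 7508 to 10323 in the single-deletion libraries and 10105 and 11944 in FD1 and FD2. Rps25 was 23722 and 27520.0 in D1 and D2, 28364 and 28388 in F1 and F2, 33286 and 37420.0 in FD1 and FD2, and 51747 in WT1, a difference of 0.39 ± 0.11 (adjusted p = 0.0788). The order of the groups was that of Taf1, and the difference did not pass the threshold. Among the 6 genes whose log2 levels were most like those of Taf1 over the 7 libraries, by Pearson r over 9777 candidates, were Rps25, Rpl23a, Rdm1, Eef1a1 and Pecam1 (r = 0.978 to 0.990). WT1 carries much of any such r, since it is far above the rest for Taf1. Of these, Rdm1 passed the test. Rdm1, a RAD52 motif gene, was 561 and 644 in D1 and D2, 620.3 and 675 in F1 and F2, 1201 and 1114 in FD1 and FD2, and 1733 in WT1, a difference of 0.89 ± 0.12 (adjusted p = 0.0104), which spanned 60.4% of the distance to WT1. Pecam1, an adhesion receptor gene, was 1549 to 2138 in the single-deletion libraries, 2457 and 2289 in FD1 and FD2 and 3322 in WT1 and did not pass (adjusted p = 0.0851).

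**Figure D5:**
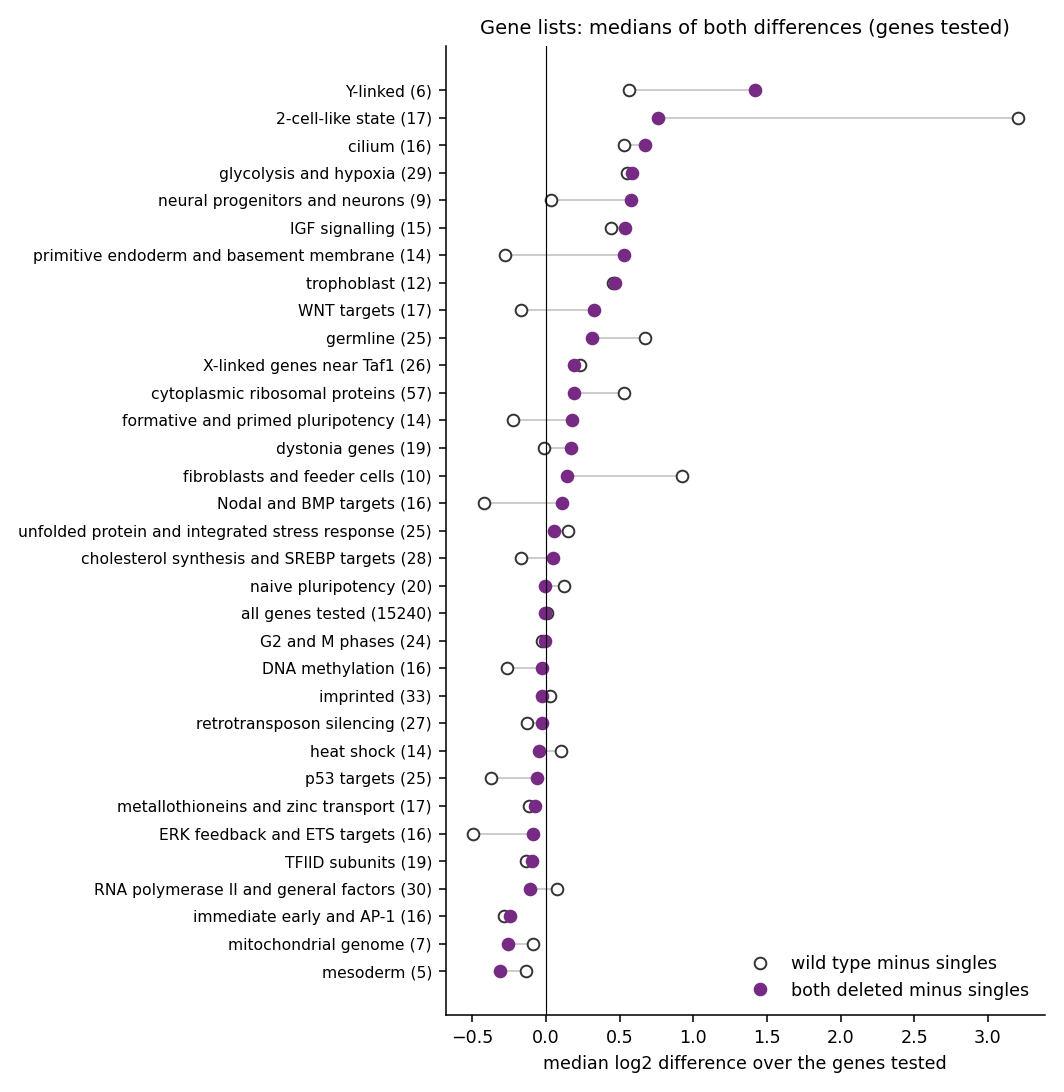
Median log2 difference over the tested genes of each list with at least 5 (numbers in brackets), for the double deletion minus the single-deletion mean (filled) and the wild-type library minus the same mean (open). The median over all 15240 genes is near 0 for both, the filled point is at 0.58 for glycolysis and hypoxia and 0.19 for ribosomal proteins, and the open point lies at 3.20 for the 2-cell-like state.

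Of the other lists, p53 targets had 1 gene higher and 2 lower of 25 and heat shock 1 lower of 14. Retrotransposon silencing had 1 higher, Zfp809, and 1 lower of 27, G2 and M phase genes 1 lower of 24, and dystonia genes 1 higher of 19, Slc2a1. The p53 target Aen was 1135 to 1261 in the single-deletion libraries, 1992 and 1747 in FD1 and FD2 and 1905 in WT1. Ckap2 on chromosome 8 was 3017 to 4359 in the single-deletion libraries, 2417 and 2018 in FD1 and FD2 and 2429.6 in WT1. Eda2r was 1142 to 1412 in the single-deletion libraries, 838 and 283 in FD1 and FD2 and 724 in WT1, with FD2 the lowest library. Dnajb1, a heat shock cochaperone gene on chromosome 8, was 2165 to 3043 in the single-deletion libraries, 1835 and 1641 in FD1 and FD2 and 1766 in WT1. The histone methyltransferase gene Suv39h1 was 430.2 to 530.1 in the single-deletion libraries, 287 and 280.0 in FD1 and FD2 and 240.1 in WT1. The mitotic gene Birc5 was 4221 to 4782 in the single-deletion libraries, 3165 and 3605 in FD1 and FD2 and 4076 in WT1. Aen lost its call without D1, D2 or F1 (adjusted p 0.0579 to 0.0757). Ckap2 lost its call without D1, D2, F1 or FD2 (adjusted p 0.0954 to 0.129) and with chromosome medians set equal (adjusted p = 0.204). Eda2r lost its call without D1, D2, F1, F2 or FD2 (adjusted p 0.0673 to 0.137) and with chromosome medians set equal (adjusted p = 0.0529) and with edgeR (adjusted p = 0.0737) and with DESeq2 (adjusted p = 0.112). Dnajb1 lost its call without D1, D2, F1, F2 or FD2 (adjusted p 0.0575 to 0.128) and with chromosome medians set equal (adjusted p = 0.209). Suv39h1 lost its call without any 1 of the 6 converted libraries (adjusted p 0.0632 to 0.139). Birc5 lost its call without any 1 of the 6 converted libraries (adjusted p 0.0579 to 0.141) and with chromosome medians set equal (adjusted p = 0.055) and with edgeR (adjusted p = 0.0567). For 16 DNA methylation genes the limma test called 0, with 4 at an unadjusted p under 0.05, edgeR 0 and DESeq2 1, and for 7 mitochondrially encoded genes all 3 tests called 0, with 0 at an unadjusted p under 0.05. The genes closest to the threshold were Lamc1 and B3gnt3 inside it (adjusted p = 0.0499) and Gm20008 and Six4 outside it (adjusted p = 0.0501).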

How the data were processed

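Libraries were stranded total RNA made with a TruSeq Gold kit, per the labels. The deposited signal is a table of normalized counts, which the authors made by dividing gene counts by 1 size factor per library, as its values show. In alphabetical order, the tools in the submitters' processing notes are deepTools 3.1.0, DESeq2, featureCounts 1.6.3, Picard 2.18.20, STAR 2.7.3 and Trimmomatic 0.36, with mm10 as the build. No source used here gives their roles, the strand setting or the annotation. Reads were recovered as whole numbers from the step between values. The tolerance was 0.1 read, and 100% of the values above 0 met it in each of 7 libraries. Of 54456 genes, 50716 (93.1%) matched GENCODE M21 by name and 1335 more matched RefSeq only.

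limma 3.58.1 (R 4.3.3, variance trend, two-sided) was fitted to log2 of the normalized count plus 1 with 1 mean for each of 4 groups, 3 residual and 6.80 prior degrees of freedom, and tested on simulated data. The contrast was conv-dSVA_F&D minus the average of the conv-dSVA_F and conv-dSVA_D means. WT1, a lone library, was taken to vary like the other groups. edgeR 4.0.16 called 639 genes and DESeq2 1.42.0 called 1274 on the recovered reads. Alternatives were other filters, pseudocounts, scalings, groupings and leaving out each converted library.

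Named genes were Taf1, up to 6 per direction with WT1 on the same side or inside and up to 3 on the other side by size of difference, up to 4 that passed per list, TFIID subunits that passed and the 6 most like Taf1. The first groups needed a mean of at least 100. A result for 1 gene of the last kind is not reported here. The members and the 32 lists were chosen with earlier results of these data known. Lists are described by counts and medians without a set test. The pre-conversion stem cell library and both striatal libraries were not analysed here.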

Additional observations from a re-analysis of the deposited data

Results flagged for a closer look

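The 2 single-deletion lines that were pooled differed from each other, by limma's test of conv-dSVA_F minus conv-dSVA_D over all genes, for 7 of the named genes. The difference was 1.37 for Uba1y (adjusted p = 0.0284), 1.85 for Uty (0.0193), 3.55 for Tmem92 (0.0118), 3.33 for Zscan4a (0.0151), 1.16 for Mest (0.0288) and 6.39 for H19 (0.0044), conv-dSVA_F being the higher in each, and -2.97 for Tex13b (0.0193), where conv-dSVA_D was the higher. For Tmem92, Zscan4a, Tex13b and H19 the double deletion differed from conv-dSVA_D by 3.55, 3.38, -3.09 and 6.06 and from conv-dSVA_F by -0.0044, 0.04, -0.12 and -0.33, so the pooled call came from conv-dSVA_D. For Uba1y and Mest the double deletion differed from both lines, by 2.79 and 1.42 for Uba1y and by -0.997 and -2.16 for Mest. For Uty the differences were 2.45 from conv-dSVA_D and 0.59 from conv-dSVA_F. In all, 29 of the 636 genes past the threshold also differed between the single-deletion lines.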

How the results depend on the processing

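The Taf1 difference was 1.20 to 1.32 under all 18 alternatives run. It remained past the threshold in all except the fit without a filter on low values and the fit without a variance trend, where its value of 1.26 had adjusted p-values of 0.155 and 0.169. The 636 genes past the threshold became 0 without the filter and 0 without the trend (4174 and 2671 at an unadjusted p under 0.05), 40 with the single-deletion libraries as 1 group, 1274 with DESeq2, 378 with chromosome medians set equal and 281 without chromosomes 6, 8, 18 and Y. Leaving out each converted library gave 82 to 905. The cause of these moves was not tested. Genes with WT1 on the same side numbered 0 without the filter, 0 without the trend, 39, 836, 273 and 209 in the same order, and 72 to 562 with 1 library left out. Genes outside the single-deletion range numbered 4906 to 8396 with 1 library left out, the 2 highest values coming where only 1 double-deletion library had to lie outside. The share with WT1 on the same side was 52.9% without the 4 chromosomes, an alternative chosen after seeing the data. Of the differences of single named genes, only that of Mixl1 changed sign, from -3.95 without FD1 to 0.017 without FD2, and it passed in no fit. No paired analysis was possible because the labels give the libraries no replicate numbers. With 1 wild-type library and 2 per line, differences near a standard error of 0.20, the median, were not detectable after adjustment.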
